A study of Callithrix jacchus with 3 samples.

Results

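The genes described here encode the proteins of the cytosolic ribosome, and were followed in 3 RNA sequencing libraries of marmoset extended pluripotent stem cell (EPSC)-like cells. Members were gene rows whose Ensembl marmoset ID maps to a symbol of the form RPL or RPS and a number, with an optional A, X or Y, or to RPLP0, RPLP1, RPLP2 or RPSA. This gave 44 rows of 30811, of which 23 belong to the large and 21 to the small subunit. A further 13 rows with names of like form were left out, namely the kinase genes that start with RPS6K and the paralogs RPL3L, RPL7L1 and RPL22L1. The name tables hold 77 member symbols, and the other 33, such as RPL5, RPL11, RPLP1, RPS19 and RPS27A, were matched to no row. They were not analysed here and are not counted as absent. The name tables hold no symbol RPS6, so that small subunit gene was not analysed either.

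The ribosome translates mRNA into protein, with a small subunit that reads the codons and a large subunit that joins the amino acids. Each ribosomal protein is needed in about the same number as its partners, and proteins left without a ribosome are broken down. In mammals, ribosomal protein mRNAs start with a tract of pyrimidines, the 5′ TOP, through which mTOR signalling sets their translation together. Stem cells that divide fast make many ribosomes.

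The study's title speaks of trials to derive such cells from embryonic stem cells of the common marmoset (Callithrix jacchus), a New World monkey. The EPSC state is known from other species, where the cells can add to the embryo and to its supporting tissues. Gene expression was profiled from total RNA in 1 group of 3 libraries, called replicates 1, 2 and 3 after the number in their titles, which all begin with No40. What No40 stands for, such as a line or an animal, is not stated. The labels give no medium, age or separate culture, and there is no parental or control group, so the question open to these data is at what level the genes stood and how far the libraries differ. Whether the libraries stem from separate cultures is not stated, so p-values measure only the spread or counting error of these libraries, and any spread between them may be technical.

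Total counts were 52327369, 55224475 and 40593244 in replicates 1, 2 and 3. Replicate 3 stood apart from the others over the whole table, with 45.9% of 23432 genes called different from replicate 1 in the comparison of library pairs used below, against 6.85% between replicates 1 and 2. All 8 pluripotency genes checked, POU5F1, NANOG and SOX2 among them, were called above 1 CPM by edgeR's quasi-likelihood test. CPM are counts per 1000000 counts, scaled by the TMM method. So were 55.9% of all genes tested, all 6 matched mesenchyme genes, and 2 of 3 endoderm and 2 of 3 trophectoderm genes with counts. This call therefore does not set the pluripotency genes apart. Summed markers of other lineages were lowest in replicate 3. The 6 matched mesenchyme genes summed to 708, 664 and 515 CPM, the 4 endoderm genes to 12.1, 14.5 and 4.51 CPM, and the 3 trophectoderm genes to 20.6, 20.8 and 12.3 CPM. Most of the mesenchyme sum was the collagen gene COL1A1, at 546, 516 and 404 CPM, above NANOG at 316, 327 and 349 CPM. Most of the endoderm drop was in GATA6, at 7.32, 8.06 and 0.490 CPM, while GATA4, at 4.13, 4.62 and 3.87 CPM, was not called different in replicate 3. The trophectoderm drop was mainly in TFAP2A, at 12.3, 12.1 and 2.45 CPM, while KRT7 was higher in replicate 3. AFP had no counts in any library, and CDX2 had none in replicate 3.

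All 44 ribosomal protein genes were expressed at high levels in each library. Each was called above 1 CPM, as were 55.9% of all genes tested, and each was called above 100 CPM, as were 8.13% of all genes tested (edgeR's quasi-likelihood test, adjusted by Benjamini-Hochberg over 23432 genes). The least certain call above 100 CPM was that of RPL3 (adjusted p = 0.000683, edgeR). Mean levels ran from 153 ± 25.0 CPM for RPL3 to 2640 ± 185 CPM for RPLP0 (SD, n = 3). CPM is not corrected for gene length, and no lengths were at hand, so each gene was compared between libraries, and any order of genes given here is one of CPM and not of mRNA abundance. Ribosomal protein genes have many pseudogenes and close copies, and the sources used here do not give how reads that fit several places were counted. The level of any member, and of RPL3 in particular, may therefore be too low or too high by an unknown amount. The strand setting is not stated either, so reads from overlapping or antisense genes cannot be told apart from theirs.

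**Figure D1:**
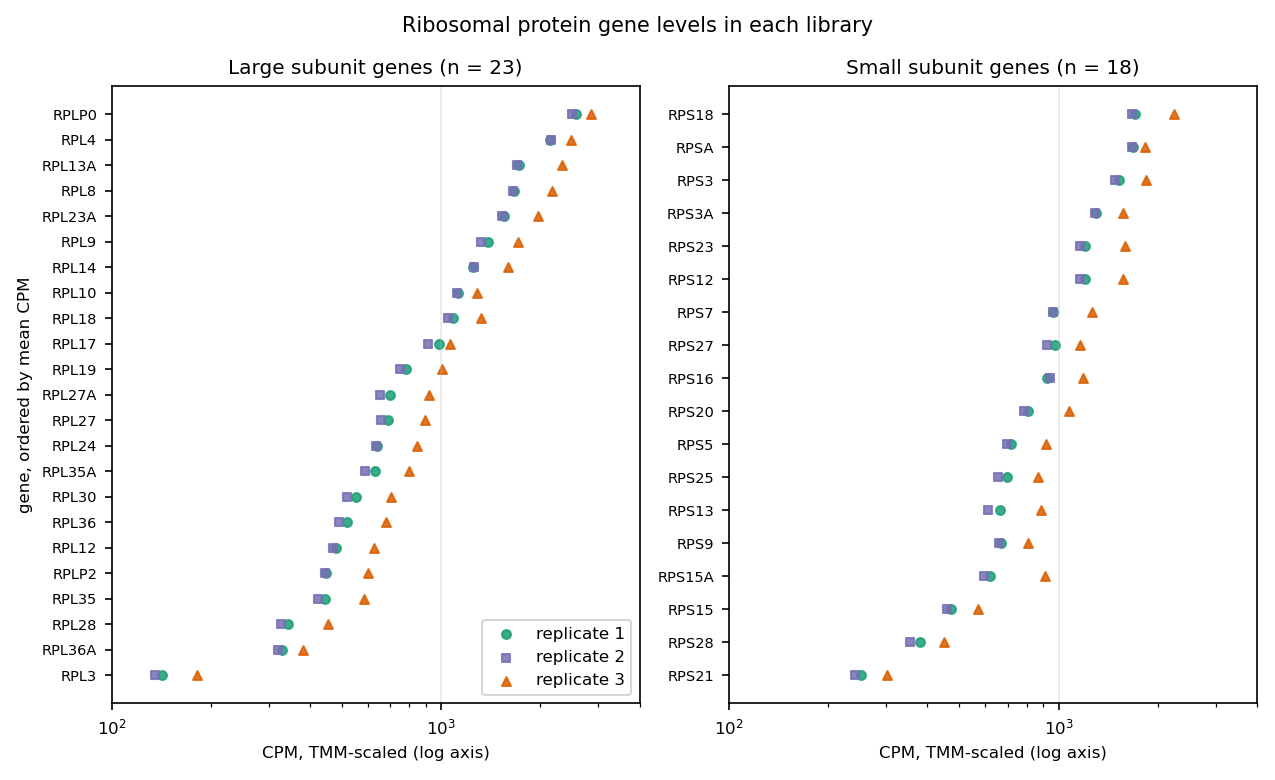
Level of 41 of the 44 genes in CPM (log axis, TMM-scaled, not corrected for length) in replicates 1, 2 and 3, with 23 large subunit genes at left and 18 small subunit genes at right. In each row the triangle of replicate 3 lies to the right of the points of replicates 1 and 2.

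The ribosomal protein genes stood higher in replicate 3 than in replicates 1 and 2 without exception. By an exact binomial test on the counts of the library pair, adjusted by Benjamini-Hochberg, 44 of 44 were higher in replicate 3 than in replicate 1, where 21.0% of all genes tested were called higher and 24.9% lower. Against replicate 2, again 44 of 44 were higher, where 21.2% of all genes were called higher and 25.1% lower. Among the 2204 other genes that averaged 100 CPM or more, 40.4% were called higher and 49.7% lower than in replicate 1. Against replicate 2, 39.1% of these were called higher and 51.1% lower. Their median level in replicate 1 was 183 CPM, against 796 CPM for the members, so a difference of the same size is less readily called in them. The largest adjusted p of any member was 4.26e-28, for RPL17 against replicate 1, by that binomial test. The test takes counts as units, compares these libraries and not conditions, and the comparisons share replicate 3, so neither is a check on the other.

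The size of the difference varied between members. The median ratio of replicate 3 to replicate 1 was 1.27-fold over the members, with a range of 1.08-fold to 1.47-fold. The median log2 ratio was 0.35, against −0.0049 over all genes tested and −0.048 over the other genes of at least 100 CPM. Against replicate 2 the median was 1.31-fold and the range 1.09-fold to 1.53-fold, with a median log2 ratio of 0.39 against 0.0026 over all genes tested. The members' log2 ratios to replicate 1 had an SD of 0.093, while those of the other abundant genes had an SD of 0.36. A call with a difference of at least 1.5-fold was reached by 0 of 44 members against replicate 1, where 16.3% of all genes reached it. Against replicate 2 it was reached by 1 of 44, RPS15A, where 16.8% did. Some lineage markers were also called lower in replicate 3 than in replicate 1. These were 5 of 6 mesenchyme, 2 of 3 endoderm and 2 of 3 trophectoderm genes with counts, where 24.9% of all genes tested were. The other trophectoderm gene, KRT7, was called higher, at 7.80, 8.24 and 9.86 CPM. Of the 8 pluripotency genes, 4 were called higher than in replicate 1 and 3, namely SALL4, LIN28B and PRDM14, lower. Against replicate 2, 4 were called higher and 4 lower, with SOX2 lower as well, at 0.900-fold. Replicate 3 also has the smallest total count, and the part of this and of the markers in the result was not tested. In bulk RNA, fewer cells of a type and less RNA per cell cannot be told apart.

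**Figure D2:**
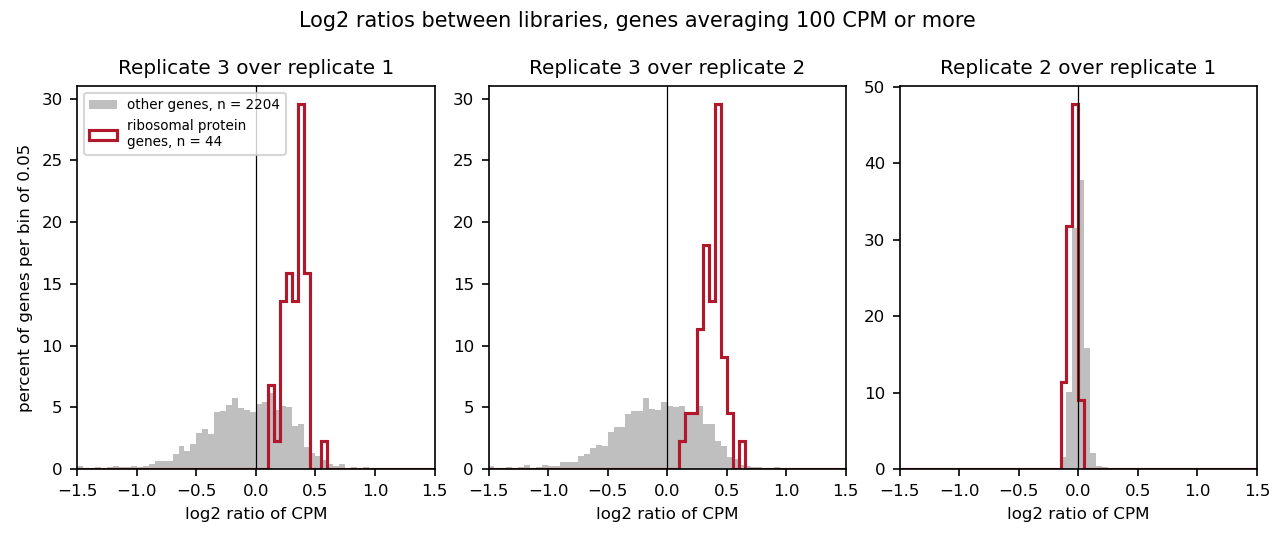
Distribution of log2 CPM ratios between each pair of libraries for the 44 ribosomal protein genes (red outline) and the 2204 other genes averaging 100 CPM or more (grey), as percent of genes per bin, with values beyond 1.5 drawn at the edge. The ribosomal protein genes form a narrow peak above 0 in both panels with replicate 3 and lie slightly below 0 for replicate 2 over replicate 1.

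Replicates 1 and 2 were much closer to each other, and the members still leaned to one side. In replicate 2, 31 of 44 were called lower than in replicate 1 and RPS16 was called higher, where 3.14% of all genes tested were called lower and 3.72% higher. The other genes of 100 CPM or more were called lower in 8.89% and higher in 15.7% of cases. With 1.5-fold required as well, 0 of 44 members and 1.07% of all genes differed. The median ratio was 0.971-fold, and the log2 ratios ran from −0.13 for RPS13 to 0.037 for RPS16. When every count was divided by 2, to allow for a count of both ends of a fragment, 20 members were lower and none higher by the same test. RPS16, a small subunit protein with a tail that reaches the P site, stood at 920.5, 944 and 1184 CPM. RPS13 stood at 666, 610.2 and 881 CPM, so that it was lowest in replicate 2 and highest in replicate 3.

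In sum, the 44 matched members took 4.23%, 4.10% and 5.28% of all counts in replicates 1, 2 and 3. The other 33 member symbols had no row, so the share of all ribosomal protein genes is not known from these values. Exact 95% binomial intervals, which cover counting error only, were 4.22% to 4.23%, 4.10% to 4.11% and 5.27% to 5.28%. The mean share was 4.54% ± 0.64 (SD, n = 3). Large subunit genes took 2.22%, 2.15% and 2.76%, and small subunit genes 2.01%, 1.95% and 2.52%. Both subunits were thus highest in replicate 3 and lowest in replicate 2. The summed CPM was 1.24-fold higher in replicate 3 than in replicate 1 for the large subunit and 1.25-fold for the small subunit.

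The ratio of the subunits' summed counts moved less than their sum. The summed counts of small subunit genes were 0.907, 0.907 and 0.914 times those of large subunit genes in replicates 1, 2 and 3. Across the libraries this ratio had a coefficient of variation of 0.473%, against 14.2% for the summed share. Small subunit genes made up 47.6%, 47.6% and 47.8% of the members' counts. The exact 95% intervals, which cover counting error only, were 47.48% to 47.62%, 47.51% to 47.64% and 47.70% to 47.83%. That of replicate 3 did not overlap the others. The ratio reflects which genes could be matched and their lengths, so its value is no count of subunits, and it moved to 0.935 with RPLP0 and RPS18 left out. The median log2 CPM of small minus large subunit genes was 0.40, 0.49 and 0.34 in the libraries, and averaged 0.41. It had a coefficient of variation of 19.0% and was lowest in replicate 3, where the ratio of summed counts was highest, so these measures of the balance moved in opposite directions in that library. Taken between means over the genes, the average difference was 0.12. By gene, the median log2 ratio of replicate 3 to replicate 1 was 0.36 for the large and 0.31 for the small subunit, and the difference between subunits was not tested.

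**Figure D3:**
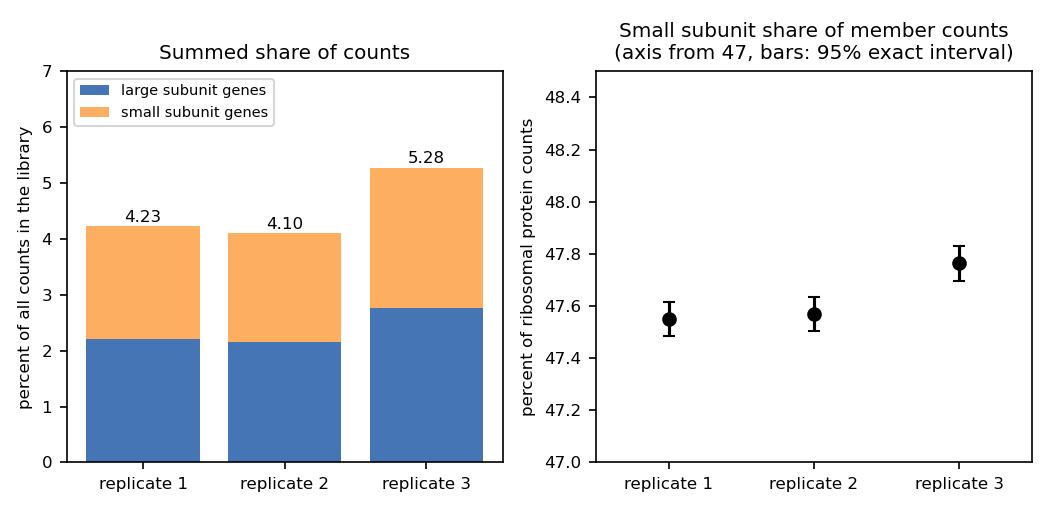
Left, percent of each library's counts in the matched large (blue) and small (orange) subunit genes, with the sum printed above each bar. Right, small subunit genes as percent of the matched members' counts, with exact 95% binomial intervals on an axis that starts at 47%. The sum is 4.23%, 4.10% and 5.28%, while the small subunit share lies between 47.6% and 47.8%.

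Genes of the ribosomal stalk, the flexible arm of the large subunit that recruits elongation factors, differed in how far they moved. RPLP0, which forms the base of the stalk, stood at 2571, 2499 and 2850.1 CPM in replicates 1, 2 and 3. It was 1.11-fold higher in replicate 3 than in replicate 1 (95% counting interval 1.10 to 1.12), near the low end of the members. RPLP2, which binds to RPLP0 as part of the stalk, stood at 446, 444 and 602 CPM. Its ratio was 1.35-fold (1.33 to 1.37), and the counting intervals of the stalk partners did not overlap. Such intervals leave out any further spread between libraries, and the difference between these genes was not tested. RPL12, which sits at the base of the stalk, stood at 480.1, 468 and 626 CPM and was 1.30-fold higher (1.28 to 1.33).

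Proteins near the catalytic centre and along the tunnel through which the new chain leaves were encoded by genes of very different CPM. RPL3, a core protein close to the peptidyl transferase centre, had the lowest CPM of the set at 142, 135 and 181 CPM. RPL8, which lies by the same centre, stood at 1662, 1657 and 2165 CPM and was 1.30-fold higher in replicate 3 than in replicate 1. RPL4, which lines the tunnel with a long loop, stood at 2139.5, 2157 and 2472 CPM, a ratio of 1.16-fold. RPL10, a late-joining protein that is needed for the subunits to unite, stood at 1128, 1116 and 1285 CPM, a ratio of 1.14-fold. In each of these 4 genes replicates 1 and 2 lay closer to each other than to replicate 3, which was above them.

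The list of proteins at the rim of the exit tunnel, where chaperones and the signal recognition particle dock, had 4 of its 7 members matched. They were called higher in replicate 3 than in replicates 1 and 2, as were all 44 members. RPL23A stood at 1553, 1529 and 1965 CPM, RPL19 at 783, 752 and 1008 CPM and RPL35 at 443, 423 and 583 CPM, with ratios to replicate 1 of 1.27-fold, 1.29-fold and 1.32-fold. RPL17, singled out here after its values were seen, stood at 987, 912 and 1062 CPM. Its ratio to replicate 1, 1.08-fold (1.06 to 1.09), was the smallest of the 44, and its ratio to replicate 2 was 1.16-fold. RPL17 was also among the members with the largest difference between replicates 1 and 2, at 0.924-fold.

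RPL13A, which besides its place in the ribosome acts in interferon-induced control of translation, had the largest ratio to replicate 1 in the large subunit. It stood at 1718, 1700.4 and 2332 CPM, and was 1.36-fold higher in replicate 3 than in replicate 1 (1.34 to 1.37). RPL28 stood at 342, 326 and 453 CPM and RPL36A at 329.9, 319 and 381 CPM, the lowest CPM of the large subunit after RPL3. Their ratios to replicate 1 were 1.32-fold and 1.15-fold.

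Among small subunit genes, RPS15A moved the most and RPSA the least. RPS15A, a core protein of the small subunit, stood at 619.6, 594 and 910.2 CPM in replicates 1, 2 and 3. It was 1.47-fold higher in replicate 3 than in replicate 1 (1.45 to 1.49) and 1.53-fold higher than in replicate 2 (1.51 to 1.55). The next largest ratio to replicate 1 in the small subunit was that of RPS20, at 1.33-fold (1.31 to 1.34), with 809, 788 and 1073 CPM. RPSA, which is also known as the laminin receptor, stood at 1686, 1673 and 1830.3 CPM. Its ratios were 1.09-fold to both replicate 1 (1.08 to 1.10) and replicate 2 (1.08 to 1.10), and it had the smallest coefficient of variation of the set, at 5.05%. Replicate 3 was still above the others for RPSA. RPS15A and RPSA are set side by side here as the ends of the small subunit's range, so the gap between their intervals follows from that choice and is no test.

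The remaining small subunit genes of most counts fell between these. RPS18, a protein of the head of the subunit, stood at 1707, 1671 and 2241 CPM, a ratio to replicate 1 of 1.31-fold. RPS3, which lies at the entry of the mRNA channel, stood at 1525, 1485 and 1839 CPM, a ratio of 1.21-fold. In both of these, replicate 2 was slightly below replicate 1 and replicate 3 well above. RPS3A, which lies near the exit of the mRNA channel, stood at 1302, 1290.2 and 1566 CPM, a ratio of 1.20-fold. RPS23, which reaches into the decoding centre, stood at 1200.5, 1165 and 1587 CPM, a ratio of 1.32-fold.

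The small subunit genes of fewest counts included RPS21 and RPS28. RPS21 stood at 251, 240.4 and 302 CPM and RPS28 at 381, 354 and 450.1 CPM. Their ratios of replicate 3 to replicate 1, 1.20-fold and 1.18-fold, were below the members' median. RPS27, a zinc-binding protein, stood at 979, 925 and 1164 CPM, and its ratio was 1.19-fold.

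Set against the total of the members in place of the whole library, the genes did not all move alike. The share of all ribosomal protein counts was higher in replicate 3 than in both other libraries for 24 genes, lower than in both for 16, and between or mixed for 4. RPS15A made up 1.47%, 1.44% and 1.73% of the members' counts in replicates 1, 2 and 3. RPLP0 made up 6.08%, 6.07% and 5.43%, and RPSA 3.99%, 4.06% and 3.48%. These shares depend on which members could be matched, and carry no test.

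**Figure D4:**
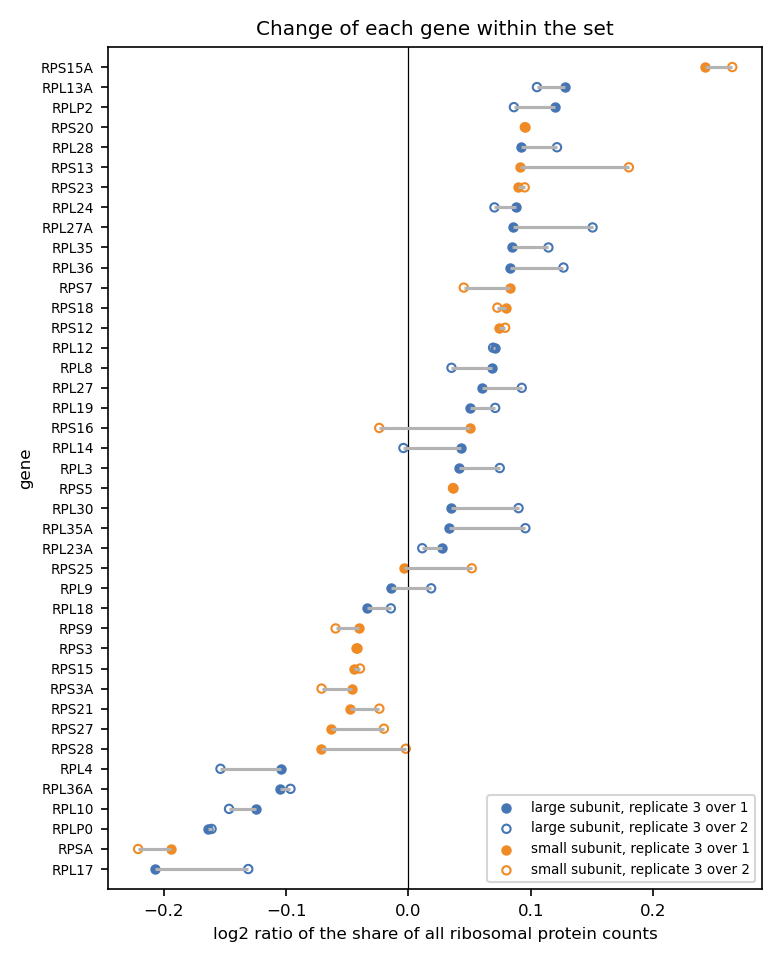
Log2 ratio of each gene's share of the matched members' counts, replicate 3 over replicate 1 (filled) and over replicate 2 (open). Drawn are 41 of the large (blue) and small (orange) subunit genes, ordered by the first ratio. RPL17, RPSA and RPLP0 lie at the low end and RPS15A at the high end, and most genes lie within 0.1 of 0.

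Groupings by other known properties showed like medians. Of the 19 listed genes in which mutations cause Diamond-Blackfan anaemia, a failure of red cell formation, 9 were matched, RPS7 and RPL35A among them. Since all 44 members were called higher in replicate 3 than in replicates 1 and 2, any grouping of them was too, and only medians are compared. The 9 had a median ratio to replicate 1 of 1.27-fold, and the 35 other members also had 1.27-fold. Of the 26 listed genes whose introns carry small nucleolar RNAs (snoRNAs, guides of ribosomal RNA modification), 18 were matched. Their median ratio was 1.27-fold, and that of the 26 members outside the list 1.28-fold. No difference between these groupings was tested.

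Genes tied to the ribosome by other routes had their highest CPM in replicate 3, as had 42.8% of all genes tested, but not all were called higher. FAU, which encodes a small subunit protein fused to a ubiquitin-like protein, stood at 400.2, 404 and 554 CPM, and RACK1, a signalling scaffold bound to the small subunit, at 1154, 1136 and 1348 CPM. Both were called higher in replicate 3 than in replicate 1, at 1.38-fold and 1.17-fold. Of 8 paralogs kept apart by an L in their names, 3 were matched. RPL22L1 stood at 131, 132 and 185 CPM and was called higher, at 1.41-fold. RPL7L1 (66.6, 63.9 and 69.9 CPM) and RPL3L (2.43, 2.20 and 2.48 CPM) were not called different from replicate 1. Against replicate 2, RPL22L1 and RPL7L1 were called higher, at 1.40-fold and 1.09-fold, and RPL3L was not called. RPL3L is known as the striated muscle form of RPL3, and its counts were a small fraction of those of RPL3 in each library.

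Other mRNAs known to begin with a 5′ TOP did not move as a block. Of 16 listed, 11 were matched, of which 7 were called higher in replicate 3 than in replicate 1, 3 lower and 1 not different. Among the other genes of at least 100 CPM, 40.4% were called higher and 49.7% lower. The median log2 ratio of the 11 was 0.080, against 0.35 for the ribosomal protein genes and −0.048 for those other genes. The translationally controlled tumour protein gene TPT1 stood at 1277, 1259 and 1565 CPM, and the elongation factor gene EEF1D at 206, 199 and 276 CPM, both called higher. The elongation factor gene EEF2, which moves the ribosome along the mRNA, stood at 4660.4, 4687 and 4129 CPM and was called lower. So was the initiation factor gene EIF4B, at 921, 902 and 733 CPM.

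Regulators of 5′ TOP mRNAs were divided as well. Of 13 listed, 10 were matched, with 7 called higher and 3 lower in replicate 3 than in replicate 1, and a median log2 ratio of 0.10. Of all genes tested, 21.0% were called higher and 24.9% lower, and of the other genes of at least 100 CPM 40.4% and 49.7%. LARP1, which binds the 5′ TOP, stood at 648, 659 and 678 CPM, and its close relative LARP1B at 98.8, 114 and 164 CPM. MTOR, the kinase that controls TOP mRNA translation, stood at 149, 151 and 109 CPM and RPTOR, its partner, at 37.9, 43.4 and 24.3 CPM. Both of these were called lower in replicate 3. Of 9 listed chaperones of single ribosomal proteins, 6 were matched, with 3 called higher and 2 lower, beside the same shares of all genes. The chaperone gene LTV1, which helps small subunit assembly, stood at 197, 204 and 263 CPM, and HEATR3, which helps to bring RPL5 into the nucleus, at 47.6, 48.3 and 35.8 CPM.

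**Figure D5:**
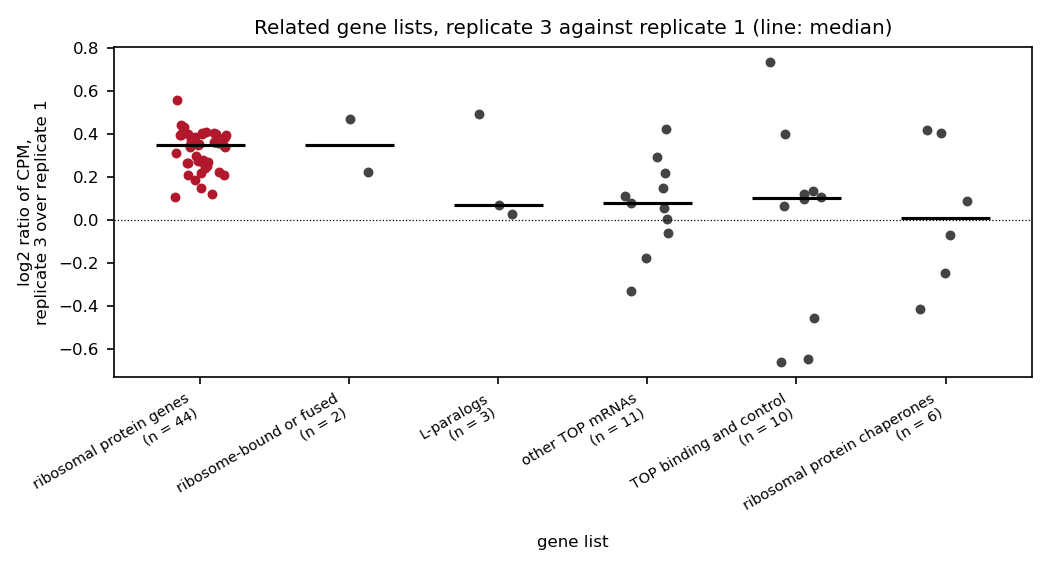
Log2 CPM ratio of replicate 3 over replicate 1 for each gene of 6 lists, with the median as a line. The 44 ribosomal protein genes lie between 0.11 and 0.55, while the lists of other 5′ TOP mRNAs, regulators and chaperones have values on both sides of 0.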

How the data were processed

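Per the submitters' processing notes, reads went through Trim Galore (version 0.4.0), STAR (2.5.3a) and featureCounts (1.5.2). Build, annotation, strand setting and the handling of reads with several matches were not given in the sources used here. Raw counts, whole numbers that were not normalized, were deposited by the authors in a separate table for each library. Gene IDs were paired with symbols through a name table, which matched 12660 of 30811 rows.

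Members and lists were chosen with earlier results of these data known. CPM values used TMM effective library sizes (edgeR 4.0.16, limma 3.58.1, R 4.3.3). For 23432 genes with at least 1 count, an intercept-only edgeR quasi-likelihood model was tested against 1 and 100 CPM, two-sided, with F computed from the deviances. Pairs of libraries were compared by an exact two-sided conditional binomial test (doubled smaller tail). P-values were adjusted by Benjamini-Hochberg over all genes tested, with a threshold of 0.05. Log2 CPM had a prior count of 0.5. Reads carry no molecular identifiers, so exact 95% intervals cover counting error only. The named genes were, by rule, the 5 highest and 3 lowest of each subunit, the 4 with the largest ratio of replicate 3 to replicate 1, and members of known role. Others were added after their values were seen, and some genes are not reported here by name. Both tests were checked on simulated data. For library pairs the simulation held counting error only, so it cannot show how the test behaves with further spread between libraries. Alternatives were total counts, DESeq2 1.42.0, TMM without the members, other filters, halved counts, a 1.5-fold minimum and leaving out each library. Plots were made in matplotlib 3.10.9 (Python 3.11.15).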

Additional observations from a re-analysis of the deposited data

How the results depend on the processing

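All 44 members stayed above 1 and above 100 CPM with total counts or DESeq2 size factors for scaling, with DESeq2's Wald test, with filterByExpr or no filter, and without each replicate (44 in each). The 44 higher calls of replicate 3 over replicates 1 and 2 were also 44 under each of the 3 other scalings, with halved counts and among genes averaging 1 CPM or more. With a 1.5-fold minimum they were 0 against replicate 1 and 1 against replicate 2, and 0 members differed between replicates 1 and 2. With halved counts, 20 members were lower in replicate 2 than in replicate 1 in place of 31, and 0 higher in place of 1. The members lower in replicate 2 were 33 with total counts, 27 with DESeq2 size factors and 31 with TMM without the members. Their median log2 ratio of replicate 2 to replicate 1 ran from −0.048 to −0.039 over the scalings. The median log2 ratio of the members ran from 0.35 to 0.37 against replicate 1 and from 0.39 to 0.40 against replicate 2 over the scalings. The ratio of small to large subunit counts was 0.935 without RPLP0 and RPS18, and the difference of subunit medians, 0.41, was 0.12 with means. These follow from which genes enter the sum or how they are averaged. Fits without a replicate rest on 2 libraries. No paired analysis was possible because all libraries form 1 group. Values per coding length were planned and not run, as no lengths were at hand. The least counted member had 7400 counts in a library. Halved counts give this test less power by construction. They left fewer calls between replicates 1 and 2, while those of replicate 3 stayed at 44. Whether depth limited the calls was not tested. The unknown treatment of reads shared with copies limits how far the members' levels can be read.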
